A study of Sus scrofa with 12 samples.

Results

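The effects of knocking down 2 G-protein-coupled receptors, F2RL2 and LGR4, were set against each other in differentiating porcine subcutaneous preadipocytes, the precursors of fat cells. The comparison used the 3 arrays whose titles name an F2RL2 siRNA and the 3 whose titles name an LGR4 siRNA, 6 of 12 arrays in all. The cells came from subcutaneous tissue of female pigs, were transfected with siRNA and were collected at day 4 of adipose conversion. Both groups, like the control siRNA group and the GPR124 siRNA group of the same study, were differentiated in high-glucose medium with serum, insulin (5 µg/ml), dexamethasone (0.25 µM), biotin (33 µM), pantothenate (17 µM) and octanoate (5 mM). Each array carried Cy3-labelled RNA of one transfected culture and, in Cy5, RNA of a reference shared by all arrays, day 0 preadipocytes that had been neither transfected nor differentiated. The labels give neither the number of animals nor the siRNA sequences, and a second label field spells the F2RL2 target R2RL2. They do not say whether the arrays of a group came from separate cultures, so p-values measure the spread between arrays, which may be technical.

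F2RL2 encodes a protease-activated receptor, a family that thrombin and related proteases switch on by cutting the receptor's extracellular end. LGR4 encodes a receptor for R-spondins, secreted proteins that strengthen Wnt signalling, and Wnt signalling is known to hold preadipocytes back from becoming fat cells. GPR124 encodes an adhesion receptor that also takes part in Wnt signalling. During adipose conversion, genes of fat storage are switched on while many genes of the precursor state are switched off. The array's probes are not paired with genes in the files, and a search of the gene tables used here found no match for any of its 43221 identifiers. The knockdown of either target, fat cell markers and other gene lists were therefore not analysed here, and the results are given for groups of probes and for 4 probes by identifier.

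All values below are log2 ratios of Cy3 over Cy5, so that 0 is the level of the day 0 reference, 1 is 2-fold above it and -1 is 2-fold below it. On the 6 arrays, 25323 to 29381 probes lay well above background in Cy3 and 27003 to 31327 in Cy5. The scanner software marked 335 spots as outliers on LGR4 siRNA replicate 3 and 1 to 4 on each of the other 5 arrays. F2RL2 siRNA replicate 1 lay on slide 1 with the control arrays, LGR4 siRNA replicate 3 lay on slide 3 with the GPR124 arrays, and the other 2 arrays of each group shared slide 2. Across probes, which are not independent replicates, log ratios correlated at 0.92 to 0.937 within the F2RL2 group, at 0.917 to 0.958 within the LGR4 group and at 0.836 to 0.915 between them. The median SD of a probe over 3 arrays was 0.115 with F2RL2 siRNA, 0.0995 with LGR4 siRNA and 0.0753 with control siRNA.

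Most transcripts did not pass as different between the 2 knockdowns, and most of those that did differed by less than 2-fold. Of 32346 probes measured, 1795 were higher (5.55%) and 2709 lower (8.38%) with F2RL2 siRNA than with LGR4 siRNA, together 4504 or 13.9% (limma, Benjamini-Hochberg adjusted p under 0.05). A difference of at least 2-fold was reached by 113 of the higher probes (0.349%) and 240 of the lower ones (0.742%), together 353 (1.09%), and one of at least 4-fold by 10 and 22. The median absolute log2 difference was 0.445 among the 4504 probes and 0.113 over all probes. The 3 arrays of one group lay entirely on one side of the other 3 for 350 of the 353 probes that differed at least 2-fold, and for 29% of all probes. Without F2RL2 siRNA replicate 3, 2948 probes passed instead of 4504, and 331 instead of 353 at 2-fold. With median centring in place of loess 1377 passed, and 304 at 2-fold.

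The other 27842 probes did not pass, which does not show that they were equal. The 95% interval of the difference stayed within 2-fold for 27618 of them (99.2%), and it reached 2-fold for 224. The median half-width of that interval over all probes was 0.211 on the log2 scale. Probes of low signal passed less often, with 4.27% called among the dimmest of 4 equal groups by mean signal, against 12%, 19.9% and 19.5% in the 3 brighter ones.

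**Figure D1:**
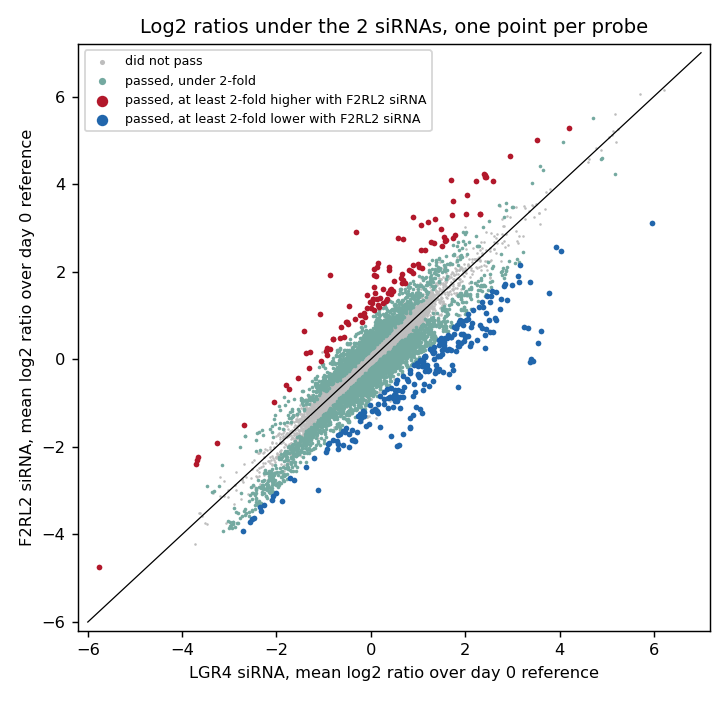
Mean log2 ratio over the day 0 reference with F2RL2 siRNA (vertical axis) against that with LGR4 siRNA (horizontal axis), one point per probe, n = 3 arrays per mean, with the line of equal values. Most probes lie along the line; 113 probes at least 2-fold higher and 240 at least 2-fold lower with F2RL2 siRNA are coloured.

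The 2 siRNAs left the induced side of differentiation at nearly the same mean level, but many of its members differed between them, in both directions. Probes raised in differentiation were chosen by the control siRNA mean, with a log ratio of at least 1 and limma adjusted p under 0.05. This gave 1171 probes or 3.62%. F2RL2 and LGR4 arrays did not enter that mean, but they entered the spread behind its p-value and the probe filter. The control values that made the choice are a description. The control ratio also holds any effect of transfection and of dye, because the reference was untransfected and dyes were not swapped. The mean log ratio of these 1171 probes was 1.35, 1.38 and 1.39 on the F2RL2 arrays and 1.31, 1.39 and 1.33 on the LGR4 arrays, against 1.78, 1.78 and 1.83 on the control arrays. The 2 knockdown groups overlapped, at 1.38 ± 0.024 and 1.34 ± 0.041 (SD, n = 3), and both lay below all control arrays.

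Of the 1171 induced probes, 305 were higher and 253 lower with F2RL2 than with LGR4 siRNA, and 613 did not pass. That is 47.7% called, against 13.9% over all probes, and the median difference was 0.0992, against -0.011 over all probes. Without background correction the median was 0.0603. At 2-fold or more, 62 were higher and 81 lower, shares of the set to be read against 0.349% and 0.742% of all probes. Both groups were chosen by this difference among probes high in control, so low values with the lower siRNA are in part built in.

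The 81 induced probes that were at least 2-fold lower with F2RL2 siRNA had nearly lost their induction in those cells. Their median log ratio was 0.346, 0.473 and 0.377 on the F2RL2 arrays and 1.41, 1.82 and 2.13 on the LGR4 arrays, with 2.31, 2.13 and 2.46 on the control arrays. The LGR4 arrays lay between the F2RL2 and the control arrays, nearer to the control arrays, and differed more among themselves than the F2RL2 arrays did. On the GPR124 arrays the same probes were at -0.127, -0.154 and -0.335, near or below the undifferentiated level.

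The 62 induced probes that were at least 2-fold higher with F2RL2 siRNA showed the reverse. Their median log ratio was 2.57, 2.47 and 2.66 on the F2RL2 arrays, near or above the 2.23, 2.29 and 2.28 of the control arrays, and 1.07, 1.12 and 0.869 on the LGR4 arrays. The LGR4 mean lay below the control mean for all 62 probes, and the F2RL2 mean lay above it for 35 of them. The low LGR4 means follow in large part from choosing probes high in control and lower with LGR4 than with F2RL2 siRNA. On the GPR124 arrays the medians were 0.861, 1.19 and 0.708, close to the LGR4 arrays. Within slide 2 alone, where 2 arrays of each group can be compared, 46 induced probes passed as at least 2-fold lower and 59 as at least 2-fold higher, against 81 and 62 over all arrays.

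The repressed side differed mostly in one direction. Probes lowered in differentiation, chosen by the control mean in the same way, numbered 1835 (5.67%). Their mean log ratio was -1.39, -1.54 and -1.52 on the F2RL2 arrays and -1.29, -1.20 and -1.15 on the LGR4 arrays, against -1.65, -1.72 and -1.64 on the control arrays. The groups did not overlap, at -1.48 ± 0.082 with F2RL2 and -1.21 ± 0.071 with LGR4 siRNA (SD, n = 3), and the control arrays lay below both. Of the 1835 probes, 712 were lower and 105 higher with F2RL2 than with LGR4 siRNA (44.5% called), and the median difference was -0.251, or -0.164 in Cy3 alone. Among called probes, 87.1% were lower here, against 60.1% over all probes.

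Repressed probes at least 2-fold lower with F2RL2 siRNA had medians near the day 0 level with LGR4 siRNA and near control with F2RL2 siRNA. They were chosen for a gap between the siRNAs, so that gap is in part built in. For the 74 that were at least 2-fold lower with F2RL2 siRNA, the median log ratio was -1.54, -1.66 and -1.62 on the F2RL2 arrays and -0.236, -0.184 and -0.155 on the LGR4 arrays. The control arrays, at -1.78, -1.93 and -1.70, lay close to the F2RL2 arrays. The GPR124 arrays were at -1.36, -1.04 and -1.17, between the 2 groups. In the other direction, 10 of the 1835 repressed probes were at least 2-fold higher with F2RL2 siRNA, against 113 of all 32346 probes. The medians of these 10 were -1.45 with F2RL2 siRNA, -2.65 with LGR4 siRNA and -1.76 in control. Outside both sets, 29340 probes included 1385 higher and 1744 lower ones, 10.7% called, with a median difference of -0.00579.

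**Figure D2:**
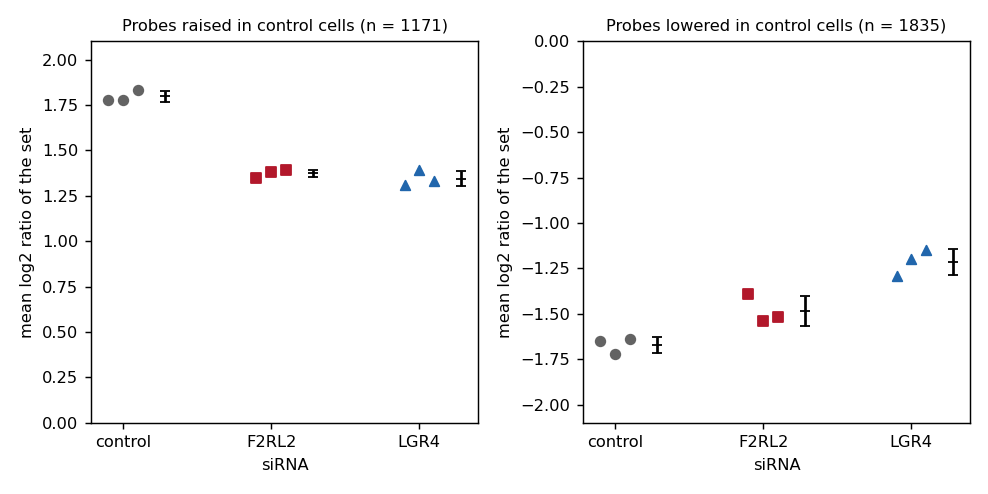
Mean log2 ratio over the day 0 reference of the 1171 probes raised and the 1835 probes lowered in control cells, one point per array, with mean and SD (n = 3) beside the points. In the raised set F2RL2 and LGR4 arrays overlap at 1.31 to 1.39; in the lowered set the LGR4 arrays (-1.29 to -1.15) lie above the F2RL2 arrays (-1.54 to -1.39).

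The slope of an array on the control mean gives a single number for how much of the control pattern it carried. Each array was regressed across all 32346 probes on the mean of the control arrays. The slopes were 0.797, 0.888 and 0.862 with F2RL2 siRNA and 0.796, 0.743 and 0.720 with LGR4 siRNA. A slope below 1 can reflect smaller ratios than in control cells, a different pattern across probes, or both. The means were 0.849 ± 0.047 and 0.753 ± 0.039 (SD, n = 3), a difference of 0.096 (2-sided exact permutation p = 0.1, the smallest that 3 arrays against 3 allow). The lowest F2RL2 slope, on the array of slide 1, and the highest LGR4 slope, on slide 2, were nearly equal.

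The probes that differed at least 2-fold fell into distinct patterns when the control and GPR124 groups were placed beside them. Those groups did not enter the difference itself, but they shared in the estimate of its spread. Each probe was assigned by whether the control mean, and the GPR124 mean, lay nearer to the F2RL2 or to the LGR4 mean. These patterns were drawn up with the values in view and carry no test. The comparisons of the 2 siRNAs with control share the control arrays, and each shares its siRNA arrays with the comparison described here.

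Among the 113 probes higher with F2RL2 siRNA, 57 had the control mean nearer F2RL2 and the GPR124 mean nearer LGR4. Their median log ratios were 2.0 in control, 1.52 with F2RL2, 0.145 with LGR4 and 0.44 with GPR124 siRNA, and 40 of them belonged to the induced set. By these medians the level seen in control was largely kept with F2RL2 siRNA and largely missing with the other 2 siRNAs. That order follows in large part from how the pattern was defined. The pattern held 50.4% of the 113 probes, against 21.8% of all 15320 probes with any positive difference.

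In a further 43 of the 113 probes both other means lay nearer to LGR4, leaving F2RL2 apart, which at 38.1% was near the 34.2% of all probes with a positive difference. Their medians were 1.66 with F2RL2 siRNA and 0.186 with LGR4 siRNA, with 0.662 in control and 0.029 with GPR124 siRNA. That F2RL2 siRNA stood highest of all groups in these probes follows from how the pattern was defined. In only 9 probes did the LGR4 group stand apart, and 4 had the control nearer LGR4 and GPR124 nearer F2RL2.

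The 240 probes lower with F2RL2 siRNA were more mixed. In 88 probes the LGR4 group stood apart, a share of 36.7% that was near the 32.3% of all probes with a negative difference. Their median with LGR4 siRNA was 1.11, against -1.01 in control, -0.314 with F2RL2 and -0.768 with GPR124 siRNA, and 44 of these belonged to the repressed set. The median with LGR4 siRNA was thus above the day 0 level and those of the other 3 groups below it. That LGR4 siRNA stood highest in these probes follows from how the pattern was defined. In 75 probes the control lay nearer LGR4 and GPR124 nearer F2RL2, with medians of 2.20 in control, 1.47 with LGR4, 0.182 with F2RL2 and -0.49 with GPR124 siRNA, and 66 of the 75 belonged to the induced set. This pattern held 31.2% of the 240 probes, against 12.7% of all 17024 probes with any negative difference.

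In another 62 of the 240 the control lay nearer F2RL2 and GPR124 nearer LGR4, 25.8% against 26.3% of all probes with a negative difference, so this pattern was no more frequent than over all probes. These probes stood at medians of -0.864 in control, -0.796 with F2RL2, 0.699 with LGR4 and 1.17 with GPR124 siRNA. The remaining 15 had the F2RL2 group apart, with medians of -0.737 with F2RL2 and 0.415 with LGR4 siRNA. GPR124 siRNA arrays shared slide 3 with LGR4 siRNA replicate 3, and control arrays shared slide 1 with F2RL2 siRNA replicate 1; what the slides add to these distances was not tested.

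**Figure D3:**
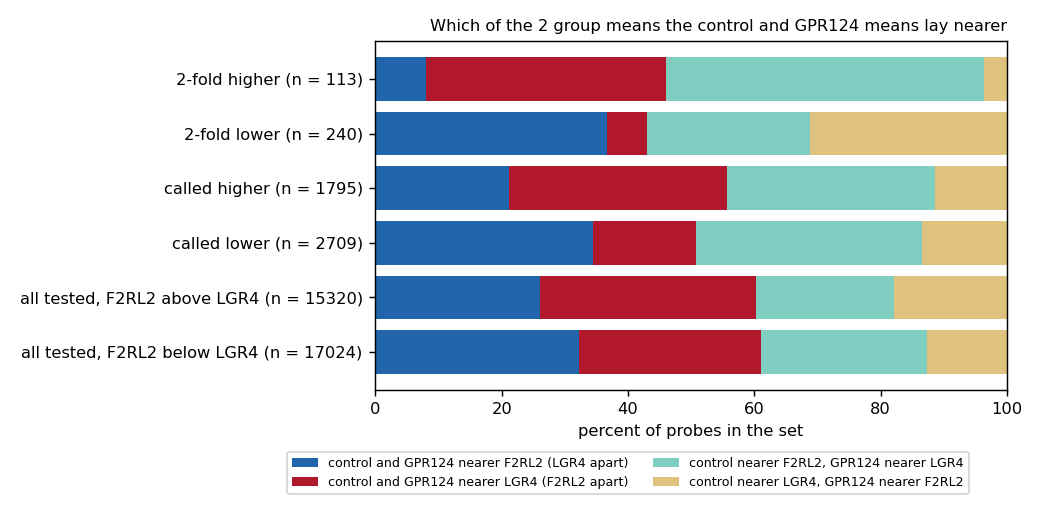
Percent of probes in each set by whether the control and GPR124 group means lay nearer to the F2RL2 or to the LGR4 mean; the n of each set is given beside its bar. At least 2-fold differences are shown above all called probes and all tested probes; control nearer F2RL2 with GPR124 nearer LGR4 makes up 50.4% of the 113 higher probes, and the reverse 31.2% of the 240 lower probes.

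Each siRNA was then set against control. Of the 113 probes higher with F2RL2 siRNA, 86 were below control with LGR4 siRNA (9.37% of all probes were) and 56 were above control with F2RL2 siRNA (10% of all probes). Their median difference from control was 0.45 with F2RL2 and -0.862 with LGR4 siRNA. Of the 240 lower probes, 158 were above control with LGR4 siRNA (13.7% of all) and 100 below control with F2RL2 siRNA (7.95% of all), with medians of 1.03 and -0.103. Since F2RL2 or LGR4 arrays enter both counts, agreement of these directions is in part built in. Called on opposite sides of control by the 2 siRNAs were 29 of the 113 and 18 of the 240 probes, against 57 of 15321 and 71 of 17025 over all probes with a positive and a negative difference.

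The probe with the largest positive difference was AGPOA3-21213. Its log ratio was 2.94, 2.86 and 2.91 on the F2RL2 arrays and -0.28, -0.26 and -0.41 on the LGR4 arrays. All F2RL2 arrays lay far above the day 0 level and all LGR4 arrays slightly below it. The difference was 3.22 (SE 0.078), or 9.34-fold (limma adjusted p = 6.21e-10). Control arrays stood at 0.11, 0.20 and -0.02 and GPR124 arrays at -1.53, -1.66 and -1.49, so that of the 4 groups only F2RL2 siRNA had all its arrays far above the reference.

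AGPOA3-07444 had the second largest positive difference, with 2.22, 1.55 and 2.0 on the F2RL2 arrays and -0.99, -0.84 and -0.76 on the LGR4 arrays. The groups lay on opposite sides of the day 0 level and of the control arrays, at 0.92, 0.80 and 0.66. The difference was 2.79 (SE 0.17), or 6.90-fold (limma adjusted p = 9.19e-07). GPR124 arrays were lower still, at -1.85, -1.51 and -2.12.

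The largest negative differences belonged to AGPOA3-21260 and AGPOA3-23693. AGPOA3-21260 was at 0.12, -0.08 and -0.18 on the F2RL2 arrays and at 3.42, 3.47 and 3.41 on the LGR4 arrays. The F2RL2 arrays were at the day 0 level, and so were the control arrays at -0.17, -0.13 and -0.17, while the LGR4 arrays were all above 3.4. The difference was -3.48 (SE 0.10), or 11.2-fold (limma adjusted p = 1.43e-09). GPR124 arrays, at 2.40, 2.78 and 2.75, were raised as well.

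AGPOA3-23693 had nearly the same profile, with 0.20, -0.23 and -0.12 on the F2RL2 arrays and 3.29, 3.40 and 3.42 on the LGR4 arrays. The difference was -3.42 (SE 0.11), or 10.7-fold (limma adjusted p = 3.25e-09). The 2 probes differed by at most 0.25 on any of the 12 arrays, and the probe ranked next, with a difference of -3.39, came within 0.12 of AGPOA3-21260 on every array. Whether these probes read 1 transcript is not known here. Each of the 4 probes lay well above background in both channels on all 6 arrays.

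The next 8 probes on each side are described by rank. On the lower side, ranks 4 to 10 had F2RL2 means of -1.98 to 3.12 and LGR4 means of 0.57 to 5.97, with differences of -3.19 to -2.52. In 9 of the 10 largest negative differences the control mean lay nearer F2RL2 and the GPR124 mean nearer LGR4. The same pattern held 25.8% of the 240 lower probes and 26.3% of all probes with a negative difference. At rank 6, the exception, LGR4 siRNA was at 5.97 ± 0.038 and GPR124 siRNA at 4.18 ± 0.41. F2RL2 siRNA was at 3.12 ± 0.17 and control at 1.01 ± 0.055 there (SD, n = 3). For that probe all 3 siRNA groups were above control, in that order. Ranks 8 and 9 differed by at most 0.14 on any array, and ranks 7 and 10 by at most 0.18. Ranks 4, 5, 7 and 10 correlated with each other at 0.989 to 0.999 across arrays, so these probes may not be separate observations.

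On the higher side, ranks 3 to 10 had differences of 2.40 to 2.01. Ranks 5 and 7 differed by at most 0.31 on any array, so they may not be separate observations. Ranks 4 and 6 resembled AGPOA3-21213 in that F2RL2 siRNA stood apart; at rank 4 it was at 3.26 ± 0.13, against 0.90 ± 0.031 with LGR4, 1.08 ± 0.15 in control and 0.05 ± 0.081 with GPR124 siRNA. At ranks 3, 9 and 10 LGR4 and GPR124 siRNA both lay far below control and F2RL2 siRNA lay nearer to it. At rank 10, for example, LGR4 siRNA was at 1.06 ± 0.24 and GPR124 siRNA at 0.86 ± 0.40, against 2.91 ± 0.14 in control and 3.07 ± 0.15 with F2RL2 siRNA (SD, n = 3). Rank 8 differed from the rest in that GPR124 siRNA, at 2.58 ± 0.31, lay with F2RL2 siRNA (2.21 ± 0.26) and not with LGR4 siRNA (0.14 ± 0.093). All 20 of these probes were well above background in Cy3 on the 3 arrays of both groups. In Cy5, ranks 3, 4 and 10 of the higher side and rank 6 of the lower side were well above background on only 2, 2, 5 and 3 of the 6 arrays. Their levels over the reference are therefore less certain, and so are the differences between the siRNAs, which use the same ratios. Those differences were 2.40, 2.36, 2.01 and -2.85, against 1.84, 2.14, 1.87 and -2.91 in Cy3 alone.

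**Figure D4:**
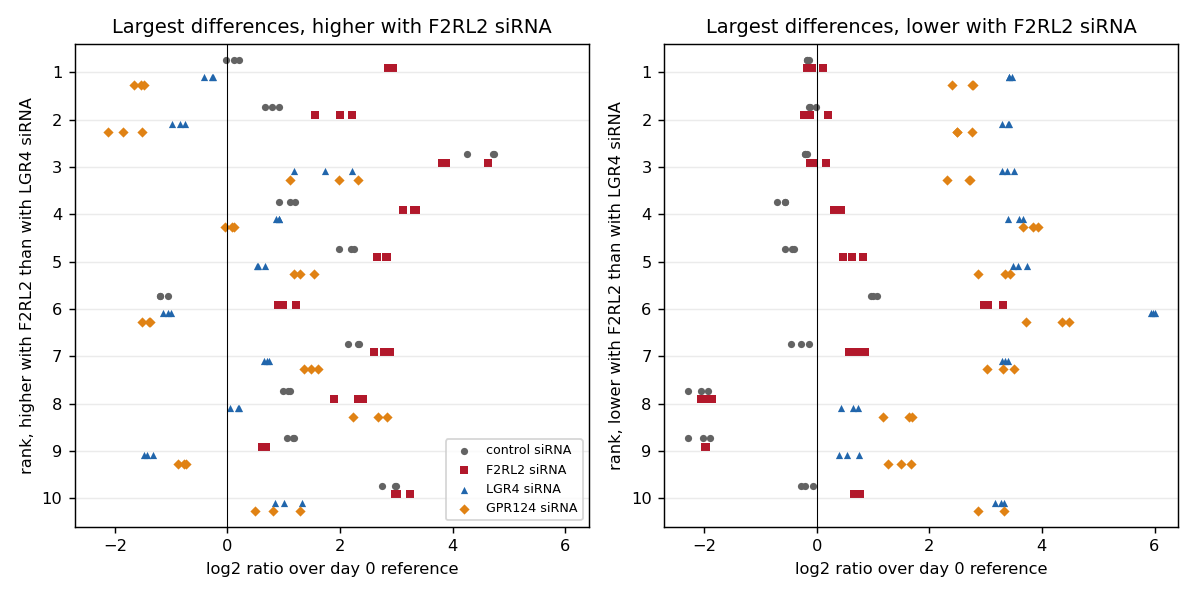
Log2 ratio over the day 0 reference of the 10 probes with the largest positive (left) and the 10 with the largest negative (right) difference between F2RL2 and LGR4 siRNA, one symbol per array in each of 4 groups; 1 GPR124 value at rank 10 on the right was left out as an outlier spot. The rule that chose the 20 probes required that F2RL2 and LGR4 arrays do not overlap. On the right the GPR124 arrays lie nearer LGR4 in all but rank 6.

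The slides were then looked at separately. The 353 probes had been chosen over all 6 arrays, which include those of slide 2 and of the remaining pair, so their direction and much of their size in these subsets follow from that choice. For the 113 higher probes the median difference was 1.23 between the 2 arrays of each group on slide 2 and 1.32 between F2RL2 siRNA replicate 1 and LGR4 siRNA replicate 3, which lay on separate slides. For the 240 lower probes these medians were -1.26 and -1.37. A fit of those 4 arrays alone, with 2 per group, called 1120 probes, of which 1101 were among the 4504, a set that rests in part on the same arrays.

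For 47 of the 240 lower probes the pair on separate slides differed by at least 0.5 more than slide 2 did, and 43 of these 47 belonged to the induced set. Their median log ratios were 0.21, 0.251 and 0.27 on the F2RL2 arrays but 1.15, 1.80 and 1.98 on the LGR4 arrays, so it was LGR4 siRNA replicate 1, on slide 2, that stood lower than its replicates. Without that array, 102 induced probes instead of 81 were at least 2-fold lower with F2RL2 siRNA.

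**Figure D5:**
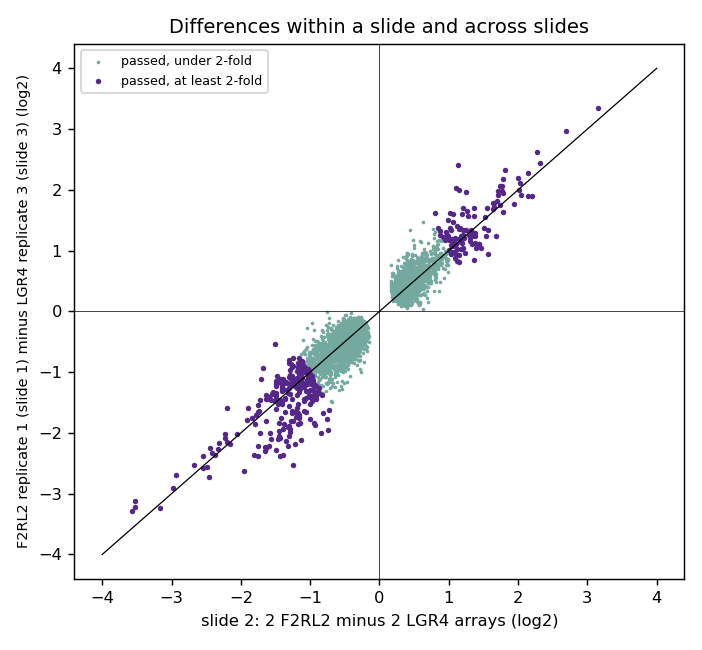
For each of the called probes, the log2 difference of F2RL2 minus LGR4 siRNA within slide 2 (horizontal axis, 2 arrays per group) against that between F2RL2 replicate 1 on slide 1 and LGR4 replicate 3 on slide 3 (vertical axis), with the line of equal values. Both axes use arrays on which the probes were chosen; a cloud below the line holds the 47 lower probes with a larger difference on the vertical axis.

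For the 353 probes the differences lay mainly in the channel of the transfected cells. These probes were chosen on the log ratio of the same arrays, so large Cy3 differences follow in part from that choice. In Cy3 alone the median difference was 1.25 for the 113 higher probes and -1.24 for the 240 lower ones, and 109 and 233 of them passed on their own. In Cy5 alone, which carried the reference on every array, the medians were 0.0484 and -0.0315. There 15 of 32346 probes passed (limma, Benjamini-Hochberg), all of them among the 4504, and 1 among the 353. That count fell to 3 without F2RL2 siRNA replicate 1 or replicate 2, to 2 without LGR4 siRNA replicate 2 and to 0 without F2RL2 siRNA replicate 3, where 819 probes had an unadjusted p under 0.05. In Cy3 alone 2448 probes passed, against 4504 in the log ratio.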

How the data were processed

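Spots were quantified with Agilent Feature Extraction 9.5.3.1, per the file headers. Of the deposited columns, the intensity used was the median pixel brightness of the spot and of its local background in either channel, not normalized; the deposited log10 ratio (Cy5 over Cy3) served only to check direction. The authors' value table holds log2 ratios that differed from log2 of the deposited processed Cy3 over Cy5 signals by at most 5e-10; its scale and direction are therefore known, with no further centring, and its column medians were -0.089 to 0.15 on the 6 arrays. It was an alternative. Gene names and the build behind the probes are not given in the sources used here.

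Signals were background-corrected (normexp, offset 50), normalized by loess within each array (1417 control spots had weight 0), and expressed as Cy3 over Cy5. Outlier spots were left out. A probe was kept where one channel, Cy3 or Cy5, was well above background on 3 or more of the 12 arrays (32346 of 43221). limma 3.58.1 in R 4.3.3 fitted a mean for each of the 4 groups over all 12 arrays, and p-values were adjusted over all probes (Benjamini-Hochberg); the fitting code was tested on simulated data. Medians of sets and counts are descriptions. Named probes were the 2 largest positive and 2 largest negative differences among called probes without overlap and well above background in Cy3 on the brighter group's 3 arrays; ranks up to 10 on each side follow the same rule. The comparison and its sets were chosen with earlier results of these data known. Alternatives covered slide, replicate number, normalization, background, channel, filters, outlier spots and single arrays.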

Additional observations from a re-analysis of the deposited data

Results flagged for a closer look

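In 5 of the 20 probes with the largest differences, every F2RL2 array lay above all control arrays and every LGR4 array below them, so the 2 siRNAs went opposite ways from control. These were the 2 largest positive differences, AGPOA3-21213 (3.22 between the groups, from differences to control of 2.81 with F2RL2 and -0.42 with LGR4 siRNA; limma adjusted p = 3.66e-09 and 0.002) and AGPOA3-07444 (2.79, from 1.13 and -1.66; limma adjusted p = 0.000626 and 2.11e-05). The others, all higher with F2RL2 siRNA, were rank 5 (2.19, from 0.63 and -1.56), rank 7 (2.06, from 0.49 and -1.58) and rank 8 (2.06, from 1.15 and -0.92). None of the 10 largest negative differences did this. The 20 probes were chosen for large differences without overlap of F2RL2 and LGR4 arrays, and the share over all probes was not counted. Ranks 5 and 7 of the higher side differed by at most 0.31 on any array and correlated at 0.989. They may not be separate observations. The difference between the siRNAs was itself tested, as given in the report. No group had the 4 arrays needed to look for a single outlying array.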

How the results depend on the processing

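All 20 ranked probes kept their direction under every alternative run, and in 355 of 356 cases they passed the threshold; the exception was rank 3 on the higher side with the authors' log ratio table (3.45, limma adjusted p = 0.0553; 17 alternatives gave 1.84 to 3.45). The 20 probes were chosen for the largest differences on the same arrays, so this follows in part from the choice. A stricter filter needed both channels well above background on all 6 arrays. It left out ranks 3, 4 and 10 of the higher side and rank 6 of the lower side. Counts of smaller differences moved. The 4504 called probes became 2615 with slide as a fixed block, 1120 within slide 2, 2448 in Cy3 alone and 1377 after median centring, and 2948 to 4023 without single arrays. The 353 probes at 2-fold became 806 with the authors' table, 324 to 420 without single arrays and 304 to 355 otherwise. Induced probes called higher and lower (305 and 253) were 139 and 90 within slide 2 and 168 and 148 with median centring; the lower ones were 166 with a slide block. Induced probes at least 2-fold lower (81) were 46 within slide 2. Repressed probes called higher and lower (105 and 712) were 29 and 317 within slide 2 and 33 and 298 with median centring; the higher ones were 61 with a slide block and the lower ones 397 with Cy3 alone. The median difference of the induced probes (0.0992) was 0.0603 without background correction, and that of the repressed probes (-0.251) was -0.164 in Cy3 alone. Repressed probes at least 2-fold lower (74) were 146 with the authors' table. Why these counts moved was not tested, except that slide 2 holds fewer arrays. The 15 calls of Cy5 alone were 9 without a filter, and 0 with only the 6 arrays or within slide 2 (unadjusted p under 0.05 for 311 and 2129 probes), and 0 to 15 without single arrays. The slope difference of 0.096 was 0.076 to 0.12 under its alternatives. Its exact permutation p of 0.1 became 0.4 with median centring, and 0.2 without background correction and with a stricter filter. That p stayed at 0.1 with the authors' table, without a filter and with outlier spots kept.

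With the replicate number as a block 3773 probes were called, and 351 at 2-fold. The numbers did not pair the arrays: deviations of same-numbered F2RL2 and LGR4 arrays from their group means correlated at -0.55, -0.33 and 0.046 across probes, and the log ratios of all 3 F2RL2 arrays correlated best with an LGR4 array of another number. Signals near background limit what the dimmest probes can show.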

Other observations

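Across all probes, F2RL2 siRNA replicate 2 and LGR4 siRNA replicate 1, which share slide 2, correlated at 0.915, close to the lowest correlation within the LGR4 group (0.917); the other pairs between the groups correlated at 0.836 to 0.875. Their deviations from the group means correlated at 0.59, and those of F2RL2 siRNA replicate 1 and LGR4 siRNA replicate 3, on separate slides, at 0.43. Deviations within a group of 3 arrays sum to 0, so these values are not independent. Among all called probes, the F2RL2 and LGR4 means lay on opposite sides of the day 0 level for 502 of the 1795 higher and 669 of the 2709 lower ones, against 2350 of 15321 and 2535 of 17025 over all probes with a positive and a negative difference. Both lay above it for 797 and 801, against 7077 and 6213 over all those probes, and both below it for 496 and 1239, against 5894 and 8277.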
